A study of Mus musculus with 12 samples.

Results

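Chad, Cnmd, Comp, Acan, Sox9 and Hapln1 are 6 genes of cartilage and of the fibrous skeleton and valves of the heart, and they were read here in bulk RNA of mouse hearts. They were taken as the rows of the deposited count table whose Ensembl identifiers carry these symbols, which gave 6 of 55401 rows. All 12 libraries came from C57BL/6J mice, an inbred strain, labelled wild type, and no transgene, drug or surgery is named for any group. The 4 groups were females trained on a treadmill for 6 weeks, with 5 sessions weekly of 45 min each at 1 km/h, sedentary females of matched age kept in their cages for those weeks, males trained on the same schedule, and sedentary males, with 3 libraries in each group. Sources used here do not give the age of the mice, the trimming of the hearts or whether atria, valves and great vessels were kept. The labels do not say in words that each library is a separate animal, so the p-values measure the spread between libraries.

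Cartilage and heart valves share much of their matrix. Sox9 is the transcription factor that drives cartilage formation and is needed for the growth of valves in the mouse embryo. Aggrecan, the product of Acan, is the large proteoglycan that binds water in cartilage, and Hapln1 encodes the link protein that fastens it, and its relative versican, to hyaluronan. Comp encodes cartilage oligomeric matrix protein, a thrombospondin that binds collagen fibrils in cartilage and tendon. Chad encodes chondroadherin, a leucine-rich repeat protein to which cartilage cells attach. Cnmd encodes chondromodulin, a glycoprotein that inhibits the growth of vessels in cartilage and is present in the avascular heart valves. In bulk tissue, fewer cells of a type and less RNA per cell cannot be told apart.

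Of the 6 genes, 4 were found in RefSeq's table of promoter windows on GRCm38.p6, which run from 250 bases before the start to 50 after it. The windows of Chad, Hapln1 and Cnmd are shown because Cnmd differed between the sexes while Chad and Hapln1 were highest in the same 3 female libraries. They lie at chr11:94564797-94565096 on the plus strand, chr13:89540386-89540685 on the plus strand and chr14:79662134-79662433 on the minus strand. RefSeq's start can differ from the gene coordinates given further on. The Hapln1 window lies within the gene, which begins there at 89539796, and the Acan window, not shown, ends before the gene. Capitals mark a match to TATAAA on the sense strand.
Chad: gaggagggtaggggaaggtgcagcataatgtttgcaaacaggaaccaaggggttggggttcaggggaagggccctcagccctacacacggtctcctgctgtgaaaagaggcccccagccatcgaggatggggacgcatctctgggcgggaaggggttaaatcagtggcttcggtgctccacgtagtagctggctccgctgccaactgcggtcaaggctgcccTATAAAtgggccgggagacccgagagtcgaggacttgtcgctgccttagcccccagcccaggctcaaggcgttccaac
Hapln1: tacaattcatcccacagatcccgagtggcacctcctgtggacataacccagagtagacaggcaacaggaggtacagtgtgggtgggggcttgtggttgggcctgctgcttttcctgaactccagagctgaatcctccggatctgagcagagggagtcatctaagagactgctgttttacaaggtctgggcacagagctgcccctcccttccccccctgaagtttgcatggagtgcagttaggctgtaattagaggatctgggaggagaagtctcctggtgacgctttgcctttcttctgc
Cnmd: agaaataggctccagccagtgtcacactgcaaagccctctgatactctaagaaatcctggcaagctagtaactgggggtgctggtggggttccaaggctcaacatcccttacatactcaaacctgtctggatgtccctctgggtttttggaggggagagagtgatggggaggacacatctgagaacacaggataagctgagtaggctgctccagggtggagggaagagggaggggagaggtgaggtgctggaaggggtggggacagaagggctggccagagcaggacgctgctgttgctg
The Chad window held TATAAA at position -28 from the start, a motif that 8.32% of the 32851 windows of the table hold on the sense strand. AACAAT and ACAAAG, the core letters that SOX factors bind, were searched on both strands, and neither was found in the windows of Chad, Hapln1, Cnmd and Acan. Either core is present in 27.0% of all windows. Bases G and C made up 61.0% of the Chad window, 54.3% of the Hapln1 window and 56.0% of the Cnmd window.

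Total counts ran from 22204349 to 32566240 per library, and without the 37 rows of the mitochondrial genome, which were at 0 in 11 libraries and held 27.3% of the counts of female sedentary 2, the highest total was 26607844. Levels are given in CPM, counts per 1000000 counts of the library after scaling with the trimmed mean of M-values. A filter on low counts kept 16213 genes and 5 of the 6 members, and Acan did not pass. In atrial muscle content 3 female libraries stood apart. Myl7, the light chain of atrial muscle, was at 107 CPM in female exercised 2, 65.6 CPM in female sedentary 1 and 23.0 CPM in female sedentary 2, against at most 2.33 CPM in the other 9 libraries. Genes of heart muscle (Myl2, Myh6, Actc1, Tnnt2, Tnni3 and Ryr2) summed to between 54200 and 63200 CPM in all 12 libraries. Of these, Myl2, the light chain of ventricular muscle, ran from 5460 to 6870 CPM.

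Cnmd was lower in females than in males in both conditions, and it was the only member to pass the test in any comparison of the main analysis. It stood at 0.916, 0.520 and 0.264 CPM in the exercised females, against 3.22, 2.57 and 2.51 CPM in exercised males. In sedentary hearts it stood at 0.640, 0.904 and 0.486 CPM in females, against 1.32, 1.86 and 2.74 CPM in males. All 6 female libraries lay below all 6 male libraries, and the counts behind these values ran from 7 to 23 per female library and from 35 to 80 per male library. Female and male groups without overlap in this direction were found for 2.02% of the genes tested over both conditions, for 7.54% in exercised hearts and for 12.8% in sedentary hearts.

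The Cnmd transcript, which lies at chr14:79637690-79662170 on the minus strand of GRCm38 in 8 exon blocks (ENSMUSG00000022025.13), differed between the sexes by a log2 fold change of -2.29 ± 0.39 (SE) in exercised hearts, with an adjusted p of 0.0295 (edgeR's quasi-likelihood test, Benjamini-Hochberg adjustment over all genes). In that comparison 26 of 16213 genes passed, which is 0.16%, and 0.0678% passed in the same direction. In sedentary hearts the log2 fold change was -1.52 ± 0.386 and edgeR's quasi-likelihood test missed the threshold, with an adjusted p of 0.0573, where 2.21% of genes passed. DESeq2 called Cnmd in sedentary hearts as well, where it called 876 genes against 358 by edgeR. A contrast of the 6 female with the 6 male libraries, added after the values of Cnmd were seen, gave -1.91 ± 0.274 with an adjusted p of 0.00225 by edgeR's quasi-likelihood test, the 46th smallest p of the table, where 5.05% of genes passed and 2.89% were lower in females.

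**Figure D1:**
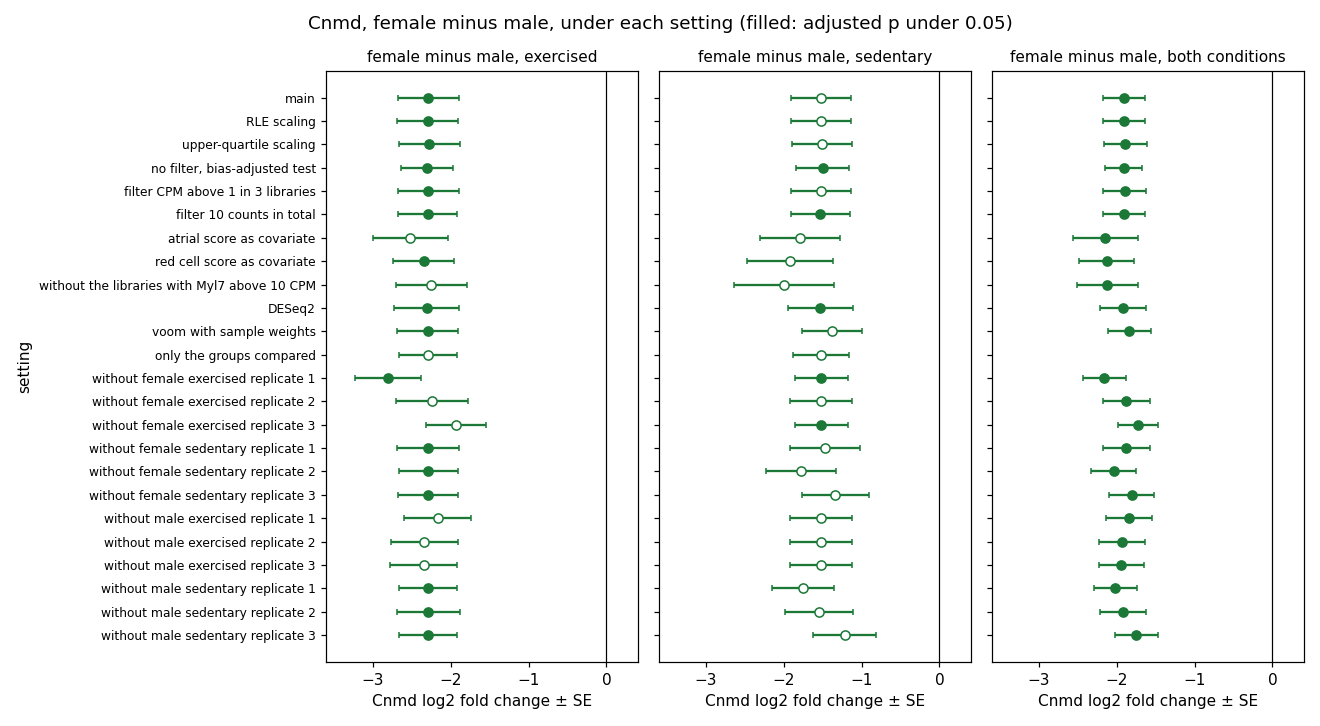
Log2 fold change of Cnmd, female minus male (x axis, with SE as bars), in exercised hearts, sedentary hearts and over both conditions (panels), for each setting of the analysis (rows); filled points have an adjusted p under 0.05. Every point lies below 0, and all points of the panel for both conditions are filled, with values between -2.16 and -1.73.

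The difference in Cnmd over both conditions passed without each of the 12 libraries in turn and under each of 10 other settings, including the fit without the 3 libraries rich in Myl7, which gave -2.12 ± 0.395. Within exercised hearts alone it rested on few libraries. The edgeR adjusted p was 0.11 without female exercised 2, 0.0922 without female exercised 3, 0.0584 without male exercised 1, 0.0732 without male exercised 2 and 0.0811 without male exercised 3. It was 0.121 without the libraries rich in Myl7, 0.0783 with an atrial score as a covariate and 0.0955 with only the groups compared. In sedentary hearts, where the main fit missed the threshold, Cnmd passed in 2 of the 12 fits without a library and in 3 of 11 other settings. The adjusted p of edgeR's test was 0.049 without female exercised 1 and 0.0423 without female exercised 3, which are libraries outside this comparison. Among the 12 fits without a library it reached 0.248. Markers of valve endothelium (Wnt9b, Cldn11, Prox1 and Wnt4) summed to 37.6 to 45.2 CPM in exercised females, 42.3 to 50.3 CPM in sedentary females, 44.2 to 51.2 CPM in exercised males and 43.4 to 60.6 CPM in sedentary males, with none of the 4 at 0 in a whole group. Nearly all of this sum was Prox1, at 33.4 to 60.1 CPM. Wnt9b ran from 0.339 to 3.29 CPM in exercised females, 0.398 to 3.24 CPM in sedentary females, 0.128 to 1.13 CPM in exercised males and 0.415 to 0.661 CPM in sedentary males, so its highest values were in females. The part of these markers in the difference in Cnmd was not tested.

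Exercise did not move Cnmd past the test in either sex. The log2 fold change of exercised over sedentary hearts was -0.28 ± 0.43 in females, with an adjusted p of 1, and 0.50 ± 0.346 in males, with an adjusted p of 0.731, both by edgeR's quasi-likelihood test. The groups overlapped in both sexes, since male sedentary 3, at 2.74 CPM, stood above 2 of the 3 exercised males. The difference between these effects was -0.77 ± 0.553, with an adjusted p of 0.93 by edgeR's quasi-likelihood test.

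**Figure D2:**
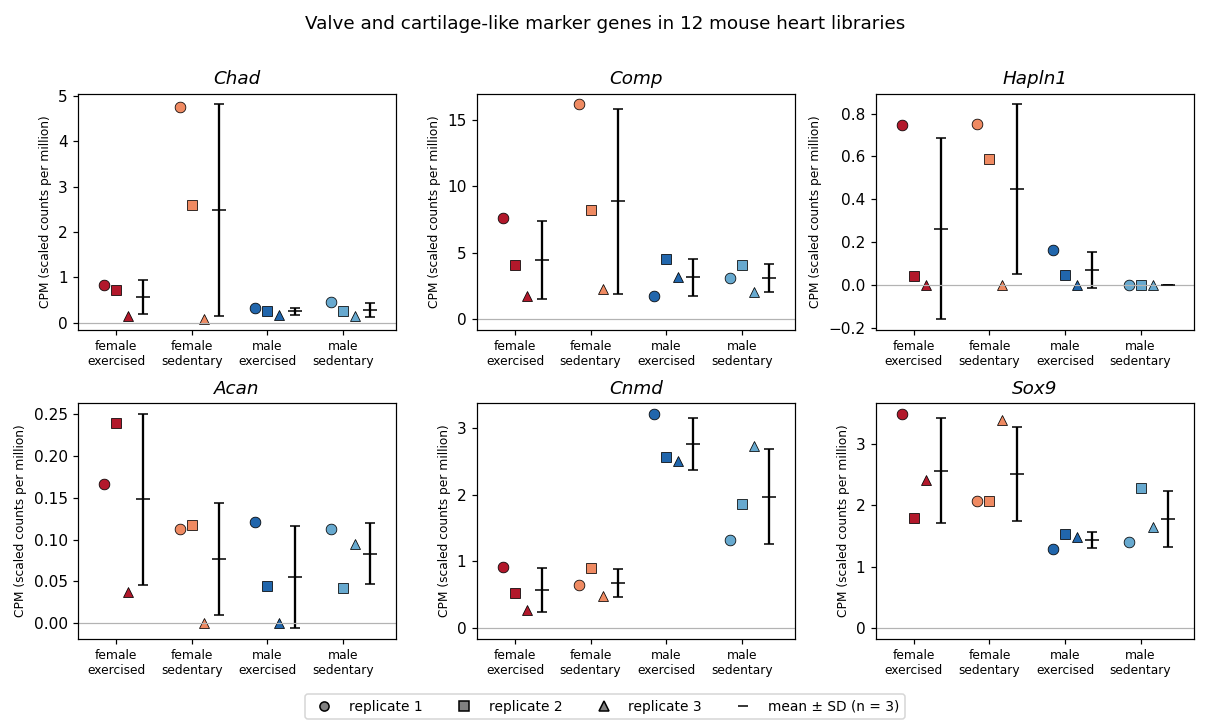
Level of each of the 6 genes in CPM (y axis, from its own scale in each panel) in the 4 groups (x axis), with a symbol per library and the mean ± SD of 3 libraries as a bar beside them. Cnmd separates the female from the male libraries, whereas Chad, Comp and Hapln1 are highest in female sedentary 1, female sedentary 2 and female exercised 1. For Chad, female exercised 2 is close to female exercised 1.

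Chad, Comp and Hapln1, which encode matrix proteins, did not follow the groups but single female libraries. Chad (ENSMUSG00000039084.8, chr11:94565047-94569127 on the plus strand, 4 exon blocks) stood at 0.833, 0.720 and 0.151 CPM in the exercised females, against 4.75, 2.59 and 0.0884 CPM in sedentary females. It stood at 0.322, 0.270 and 0.170 CPM in exercised males, against 0.453, 0.254 and 0.142 CPM in sedentary males. Female sedentary 1, female sedentary 2 and female exercised 1 held 76.1% of the summed CPM of 12 libraries, and the third sedentary female had the lowest value of all, so the sedentary females spanned both ends of the range. Female sedentary 1 was 16 times the median library. Female exercised 2, with 18 counts, was close to female exercised 1, with 20 counts, and both stood above all males.

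Comp (ENSMUSG00000031849.9, GRCm38 chr8:70373558-70382066 on the plus strand, 20 exon blocks) ranked the same 3 libraries highest and in the same order. It stood at 7.58, 4.08 and 1.69 CPM in the exercised females, against 16.2, 8.21 and 2.25 CPM in sedentary females. It stood at 1.69, 4.50 and 3.19 CPM in exercised males, against 3.09, 4.10 and 2.03 CPM in sedentary males. The 3 high female libraries stood above all 6 males, and the other females lay within the range of the males.

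Hapln1 (ENSMUSG00000021613.9, chr13:89539796-89611652 on the plus strand, 5 exon blocks) was counted 18, 1 and 0 times in exercised females and 20, 15 and 0 times in sedentary females. It was counted 4, 1 and 0 times in exercised males and 0 times in each sedentary male. The same 3 libraries held 89.5% of the summed CPM, but their order differed from that of Chad and Comp, with female exercised 1 second. A count of 0 allows up to 3 counts, which is 0.113 to 0.142 CPM in these libraries, for counting error alone. With this floor of 3 counts taken over the group, the pooled and scaled Hapln1 counts were at least 11.1-fold higher in sedentary females, with 35 counts, than in sedentary males, with 0. The counts came from 2 of the 3 females, and this bound leaves out the spread between libraries. The difference did not pass edgeR's quasi-likelihood test, with an adjusted p of 0.227 in sedentary hearts and 0.176 over both conditions. Hapln1 passed the filter on low counts only through female sedentary 1, female sedentary 2 and female exercised 1, since no other library held more than 4 counts. Its fold and p-values between the sexes follow in part from that selection and are given as a description.

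In exercised against sedentary females no member passed edgeR's quasi-likelihood test after adjustment, and 0% of genes passed. At an unadjusted p under 0.05 there was 1 member by edgeR, which was Chad, and 1 by DESeq2, and 0 by voom, where 3.93% of all genes stood by edgeR, and none passed the adjusted test of DESeq2 or voom. The log2 fold change was -2.14 ± 0.904 for Chad, -1.01 ± 0.711 for Comp and -0.83 ± 1.25 for Hapln1, each with an adjusted p of 1 by edgeR's test. The difference between the effect in females and that in males passed for 0 members and 0% of genes by edgeR's quasi-likelihood test, with 0 members at an unadjusted p under 0.05 by edgeR, DESeq2 or voom, where edgeR had 4.74% of all genes. In females these directions turned without the 3 libraries rich in Myl7, since Chad was then at 2.39 and Comp at 1.03 on the log2 scale, with 1 sedentary female left, which is assumed to vary like the other groups. The libraries left out include female sedentary 1 and 2, the highest in both genes. Female sedentary 3, the lowest library in Chad, and female exercised 1, a high one, were kept. The turn thus follows from which libraries were left out.

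In exercised against sedentary males again no member passed edgeR's quasi-likelihood test, and 0% of genes passed. Chad differed by -0.18 ± 1.23 with an adjusted p of 0.98, and Comp by 0.011 ± 0.77 with an adjusted p of 0.999, both by edgeR's quasi-likelihood test. By edgeR and DESeq2 0 members, and by voom 1, were at an unadjusted p under 0.05, where edgeR had 7.84% of all genes. None of the members passed the adjusted test of voom, and DESeq2 gave these genes no adjusted p here.

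**Figure D3:**
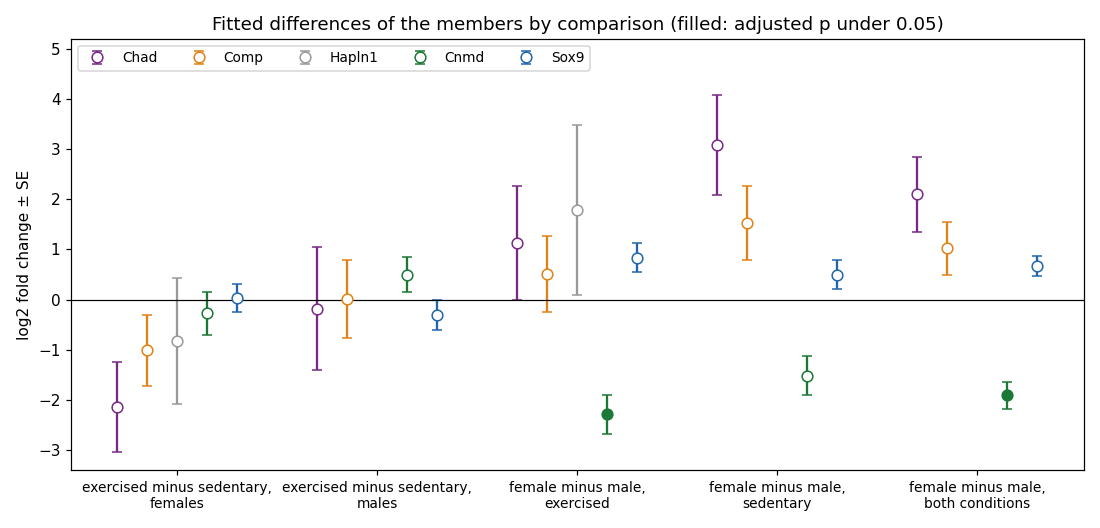
Log2 fold change ± SE (y axis) of the 5 tested members in 5 comparisons (x axis), with filled points for an adjusted p under 0.05; Hapln1 is left out where a group has no count. The points of Cnmd lie below 0 in the 3 comparisons of females with males, and the error bars of Chad and Comp are long.

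Females were set against males for the same genes. Chad differed by 3.08 ± 0.991 in sedentary hearts, with an adjusted p of 0.138, and by 1.13 ± 1.13 in exercised hearts, with an adjusted p of 0.817, both by edgeR's quasi-likelihood test. Over both conditions Chad differed by 2.1 ± 0.75 with an adjusted p of 0.14 by edgeR's quasi-likelihood test. DESeq2, which called 1370 genes against 818 by edgeR, called Chad there. EdgeR did so without female sedentary 3, with an adjusted p of 0.00969, but without the 3 libraries rich in Myl7 the log2 fold change was -0.37. Comp differed over both conditions by 1.02 ± 0.524, with an adjusted p of 0.308 by edgeR's quasi-likelihood test. The Chad row is also uncertain because the gene lies within an intron of Acsf2, a gene of the opposite strand, and the strand setting of the counting is not given; Acsf2 itself was at 22.9 to 42.7 CPM in the 12 libraries, highest in male sedentary 3, where Chad was low, and lowest in female sedentary 3, where Chad was lowest. Among females it was highest in female sedentary 1, at 37.7 CPM, where Chad was highest, and its part in the Chad counts was not tested.

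Some other genes of cartilage and valve were high in the libraries that were high in Chad, Comp and Hapln1, and others were not. Cytl1, a secreted protein of cartilage, stood at 22.5, 9.44 and 4.03 CPM in the exercised females, against 18.5, 15.4 and 4.64 CPM in sedentary females, and ran from 4.72 to 9.14 CPM in males. Wnt9b, a Wnt ligand of valve endothelium, stood at 3.29, 1.00 and 0.339 CPM in the exercised females, against 3.24, 2.59 and 0.398 CPM in sedentary females, and reached at most 1.13 CPM in males. Epyc, a small proteoglycan of cartilage, and Clec3a, a lectin of cartilage, were chosen after their values were seen. Epyc was counted 27 and 15 times and Clec3a 24 and 21 times in female sedentary 1 and 2, and neither had more than 7 counts in any other library. Collagen and matrilin genes of the cartilage list did not all follow. Col9a3 was at 0.416 CPM in female exercised 1 and at 0.452 and 0.314 CPM in female sedentary 1 and 2, against a median of 0.42 CPM over 12 libraries, and Matn4 was highest in female sedentary 3, at 1.06 CPM. Col11a2 was highest in female exercised 1 and female sedentary 1, at 4.45 and 4.22 CPM. In female sedentary 2 it was at 2.71 CPM, against a median of 3.39 CPM. Col11a1, at few counts, was highest in female sedentary 1, at 0.301 CPM, but at 0.0416 CPM in female exercised 1. Col2a1, the main collagen of cartilage, had no count in female sedentary 1 and 2 and 17 counts in all 12 libraries. Prox1, the most abundant of the 4 valve endothelium markers and also a gene of other cells of the heart, was lowest of all in female exercised 1, at 33.4 CPM, and stood at 38.7 and 41 CPM in female sedentary 1 and 2, against a median of 44 CPM.

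Markers of other tissue were high in partly different libraries. Female exercised 1, the third library high in Comp, Hapln1, Cytl1 and Wnt9b, had 2.33 CPM of Myl7 and 4.45 CPM of Hbb-bs, a globin of red cells. It also had 16.9 CPM of the atrial marker Dkk3, against a median of 3.84 CPM, and a fat cell marker sum of 7.7 CPM, above all males. Female exercised 2, the library of the highest Myl7, had 77.2 CPM of Hbb-bs, 10.1 CPM of the fat cell gene Adipoq and 1 count of Hapln1. It also had 18 counts of Chad and 7 of Epyc, against 20 and 5 in female exercised 1. Its Comp level was lower, at 4.08 against 7.58 CPM. Female sedentary 1 and 2 stood above all males in Myl7, Hbb-bs and Adipoq, with 968 and 452 CPM of Hbb-bs, and female sedentary 1 also held 82 counts of Sftpc, a surfactant protein of lung, and 56 of Scgb1a1, an airway secretory protein.

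By list, the 6 atrial muscle markers summed to 78.1 to 393 CPM in exercised females, 257 to 424 CPM in sedentary females, 42.0 to 83.4 CPM in exercised males and 57.5 to 139 CPM in sedentary males, and Nppa, which ventricles also express under load, was a large part of the sum in several libraries. Without Nppa the other 5 summed to 23.8, 303 and 7 CPM in the exercised females, against 202, 76.9 and 8 CPM in the sedentary females, and to 3.38 to 6.35 CPM in the 6 males. Female sedentary 3 and female exercised 3 were thus close to the males in these atrial markers. The 6 red cell markers summed to 17.8 to 293 CPM in exercised females, 34.6 to 3630 CPM in sedentary females, 12.6 to 86.2 CPM in exercised males and 8.26 to 43.6 CPM in sedentary males, and none of either list was at 0 in all libraries. The 6 fat cell markers summed to 0.753 to 105 CPM in exercised females, 1.06 to 14.8 CPM in sedentary females, 0.585 to 2.93 CPM in exercised males and 0.604 to 1.04 CPM in sedentary males. The 6 markers of airway and lung summed to 0.36 to 0.458 CPM in exercised females, 0.393 to 5.84 CPM in sedentary females, 0.17 to 0.585 CPM in exercised males and 0.236 to 0.415 CPM in sedentary males, with Krt5 at 0 throughout. Markers of mesothelium, such as Upk3b and Msln, were highest in female sedentary 3, with a sum of 56 CPM. Their sum was 17.4 and 18.1 CPM in female sedentary 1 and 2 and 25.6 to 29.1 CPM in exercised females. It was 19.1 to 20.9 CPM in exercised males and 16.8 to 29.4 CPM in sedentary males. The part of all this tissue in the values of Chad, Comp, Hapln1 and Sox9 was not tested.

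**Figure D4:**
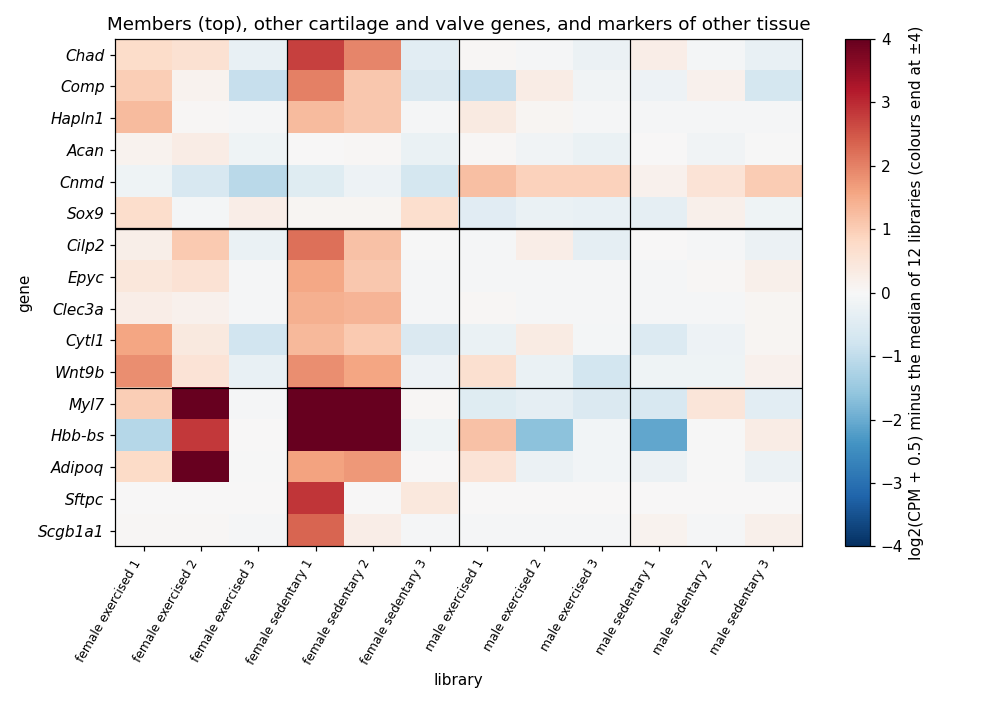
Level of the 6 members (top block), of 5 other genes of cartilage and valve (middle block) and of 5 markers of other tissue (bottom block) in the 12 libraries (x axis), as log2(CPM + 0.5) minus the median of each gene over the libraries. Chad, Comp, Cilp2, Epyc and Clec3a are highest in female sedentary 1 and 2, and Comp, Hapln1, Cytl1 and Wnt9b are also high in female exercised 1, where Hbb-bs is at 4.45 CPM.

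Sox9, the regulator, was not highest in the same 3 libraries. Sox9 (ENSMUSG00000000567.5, chr11:112782224-112787760 on the plus strand, 3 exon blocks) stood at 3.50, 1.80 and 2.41 CPM in the exercised females, against 2.07, 2.08 and 3.40 CPM in sedentary females. It stood at 1.29, 1.53 and 1.49 CPM in exercised males, against 1.40, 2.28 and 1.65 CPM in sedentary males. Its highest libraries were female exercised 1 and female sedentary 3, and the second of these was the lowest library for Chad.

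The 3 exercised females lay above the 3 exercised males in Sox9, an order that 6.79% of genes shared. The log2 fold change was 0.84 ± 0.295, with an adjusted p of 0.34 by edgeR's quasi-likelihood test. In sedentary hearts the sexes overlapped, at 0.50 ± 0.29 with an adjusted p of 0.383 by edgeR's quasi-likelihood test. Over both conditions the difference of 0.67 ± 0.207 missed the threshold, with an adjusted p of 0.0777 by edgeR's quasi-likelihood test. It was called in 2 of 10 other settings. DESeq2, which called 1370 genes there against 818 by edgeR, was 1 of them, while voom and the fit with an atrial score did not call it. Exercise gave 0.032 ± 0.282 in females and -0.31 ± 0.303 in males, with adjusted p-values of 1 and 0.82 by edgeR's quasi-likelihood test.

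Acan (ENSMUSG00000030607.7, chr7:79053483-79115099 on the plus strand, 18 exon blocks) was near the limit of these libraries, at too few counts to say whether it followed Chad and Comp. It was counted 4, 6 and 1 times in exercised females and 3, 3 and 0 times in sedentary females. It was counted 3, 1 and 0 times in exercised males and 3, 1 and 2 times in sedentary males. The 27 counts of 12 libraries gave no order of the groups, and a difference was not detectable at this depth.

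Per kilobase of exon, the mean level of the 6 genes over 12 libraries was highest for Comp, at 1.65 ± 1.4 CPM per kilobase (SD), then Cnmd at 0.811 ± 0.561, Chad at 0.533 ± 0.83, Sox9 at 0.502 ± 0.177, Hapln1 at 0.033 ± 0.0524 and Acan at 0.0122 ± 0.00941 CPM per kilobase. The ranges over libraries of each pair of neighbours in this order overlapped except those of Sox9, with a lowest library at 0.311, and Hapln1, with a highest library at 0.128 CPM per kilobase. The place of Chad rested on female sedentary 1, without which its mean was 0.324 ± 0.428 CPM per kilobase (SD, n = 11), and the median over 12 libraries was 0.176 for Chad and 0.468 CPM per kilobase for Sox9. In sedentary females Comp averaged 3 ± 2.36 and Cnmd 0.367 ± 0.115 CPM per kilobase, with Comp at 5.46 in female sedentary 1 and 0.76 in female sedentary 3. In sedentary males the 2 genes had no clear order, with Comp at 1.04 ± 0.349 and Cnmd at 1.07 ± 0.389 CPM per kilobase (SD, n = 3 each).

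The wider matrix genes of cartilage and valve were read from 6 lists of 72 genes, of which 52 passed the filter. Exercise changed none of the 52 by edgeR's quasi-likelihood test in either sex, where 0% of genes passed, nor by voom or by DESeq2, which gave 11 of the 52 an adjusted p in males. In females 4 were at an unadjusted p under 0.05 by edgeR, where 3.93% of all genes stood, and these 4 had negative values: the thrombospondin Thbs4 at -0.87 ± 0.261, periostin (Postn), a matrix protein of valve and scar, at -0.44 ± 0.124, the small proteoglycan fibromodulin (Fmod) at -0.82 ± 0.335 and the transcription factor Trps1 at -0.36 ± 0.16 on the log2 scale. Each had an adjusted p of 1 by edgeR's test, and DESeq2 had 4 and voom 7 genes at that unadjusted level. Without the 3 libraries rich in Myl7 edgeR again had 4 list genes at that level, but all 4 were then above 0. In males 5 were at an unadjusted p under 0.05 by edgeR, a share close to the 7.84% of all genes: the protease Adamts1 at 0.47 ± 0.209, versican (Vcan) at -0.40 ± 0.145, Sox6 at -0.35 ± 0.13, Trps1 at -0.45 ± 0.162 and Cilp, a cartilage intermediate layer protein, at -0.59 ± 0.247 on the log2 scale. Their adjusted p by edgeR's test ran from 0.615 to 0.631, and DESeq2 had 6 and voom 3 genes at that unadjusted level in males. Among the cartilage matrix genes, where no gene reached it, the smallest p was that of Cilp2, another intermediate layer protein, at -1.66 ± 0.946 in females, and then of Col11a2, a cartilage collagen chain, at -0.37 ± 0.255 in males.

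In the contrast of females with males over both conditions, 8 of the 52 genes were higher in females and 0 were lower by edgeR's quasi-likelihood test, where 2.16% of all genes were higher and 2.89% lower. They were Postn, Vcan, Cilp, Thbs3, Angptl7, Fgfr3, Cd44 and Fmod. Of the 12 genes of tendon and fibrous valve, 9 were tested and 4 of these passed, while of the 17 cartilage matrix genes 6 were tested and 0 passed, with 2 at an unadjusted p under 0.05 by edgeR, where 21.2% of all genes stood. Over the 52 genes the median log2 fold change was 0.27, against 0.012 over all genes, and 45 lay above 0. Cnmd lay on the other side, lower in females.

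Periostin averaged 35.7 ± 0.66 CPM in the exercised females, against 26.3 ± 3.29 CPM in exercised males, and 48.5 ± 5.05 CPM in sedentary females, against 30.0 ± 5.71 CPM in sedentary males (SD, n = 3 each). Its log2 fold change was 0.57 ± 0.089, with an adjusted p of 0.00376 by edgeR's quasi-likelihood test. Versican, the proteoglycan that Hapln1 links to hyaluronan in the heart, averaged 18.7 ± 0.974 CPM in the exercised females, against 11.7 ± 2.32 CPM in exercised males, and 21 ± 0.853 CPM in sedentary females, against 15.6 ± 2.72 CPM in sedentary males (SD, n = 3 each), a log2 fold change of 0.55 ± 0.101 with an adjusted p of 0.00787 by edgeR's quasi-likelihood test. With an atrial score as a covariate none of the 8 calls was left by edgeR's quasi-likelihood test, while Cnmd passed. Calls over the whole table also fell in that fit, so the loss is not particular to these 8 genes. The median of the tested list genes was 0.26 on the log2 scale in that fit and 0.24 without the 3 libraries rich in Myl7.

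The genes whose levels ran most like each member over the 12 libraries are given as a description, from log2(CPM + 0.5) of 13198 genes. Cnmd ran most like Rom1, a photoreceptor disc protein, with Pearson's r of 0.944 and Spearman's rho of 0.937, and then Mal, Cul3 and Pbld1, with r from 0.902 to 0.913. Chad ran most like Ppbp, a platelet chemokine, with r of 0.947 and rho of 0.734, and like Alas2, an enzyme of red cell haem synthesis, with r of 0.942 and rho of 0.531; without the 2 libraries farthest from the median these r were 0.622 and 0.502. Cilp2 was also among the genes most like Chad, with r of 0.933 and rho of 0.79. Comp ran most like Ccdc80 with r of 0.908, followed by Chad with r of 0.89, Asic3 and Bmx. The likeness of Comp and Chad was that of the female libraries, with r of 0.947 within females and 0.0863 within males. Without the library highest in Comp it was 0.785. Sox9 ran most like Cxcl5 with r of 0.911, and then Lrrc10, Ugdh and Vasn. The 12 points share their libraries, depth and any tissue carried in them.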

How the data were processed

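Bulk RNA of mouse hearts was sequenced in 12 libraries. The deposited table holds raw read counts per gene, which the authors made, per the submitters' processing notes, with Trimmomatic 0.36, STAR 2.5.2b and featureCounts of Subread 1.5.2 on GRCm38; the sources used here do not give the annotation release, the strand setting or a batch. Identifiers were matched to a GRCm38 annotation (54349 with version, 55141 rows with a symbol), whose coordinates, counted from 1, are printed. Libraries of a group differed by more than sampling noise, with a chi-square per degree of freedom of 9.1 to 33.

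The fit used edgeR 4.0.16 (R 4.3.3) with filterByExpr, the trimmed mean of M-values, mitochondrial rows left out, and 1 group-means model of 12 libraries with 8 residual degrees of freedom. The quasi-likelihood test used Benjamini-Hochberg adjustment over 16213 genes at 0.05. The alternatives were voom of limma 3.58.1 with sample weights, DESeq2 1.42.0, 2 other scalings, 3 other filters, an atrial score as a covariate, the libraries with Myl7 above 10 CPM left out, each library left out, and only the groups compared. The contrast over both conditions, the red cell covariate and the mean level without a member's highest library were added after the data were seen. Scripts were tested on simulated data.

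Named genes are all 6 members; for each member with a mean of at least 10 counts, the 4 most correlated genes, of which 1 is not reported here; of the pathway lists, genes at an unadjusted p under 0.05 in an exercise comparison, otherwise the 2 of smallest p; and of the marker lists the first 2, plus those at 10 times their median in 1 library. Genes passing the test in the sex contrasts, and Cytl1, Epyc, Clec3a, Col9a3, Matn4, Col11a1, Col2a1 and Dkk3, were chosen after their values were seen. The members and lists were chosen with earlier results of these data known.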

Additional observations from a re-analysis of the deposited data

How the results depend on the processing

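No paired analysis was possible because the labels give the groups no shared replicate numbers. Of 578 values of the members under alternatives, 528 kept their direction and their side of the threshold, 10 passed only under the alternative, 8 no longer passed and 32 turned direction. The cause was not tested in any case.

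In exercised against sedentary females, the fit without the libraries with Myl7 above 10 CPM gave log2 fold changes of 2.39 for Chad, 0.253 for Cnmd, 1.03 for Comp and -0.206 for Sox9. The red cell covariate gave 0.135 for Chad, 0.0443 for Cnmd, -0.351 for Sox9 and 0.422 for Hapln1, and the atrial covariate gave -0.0245 for Sox9. In males Comp was at -0.00192 with upper-quartile scaling, -0.0115 with the red cell covariate and -0.261 with voom. The difference between these effects was 0.59 for Chad and -0.069 for Sox9 with the red cell covariate, and 2.57 for Chad and 1.02 for Comp without the libraries rich in Myl7. Females against males gave -0.488 for Chad and -0.266 for Comp in exercised hearts with the atrial covariate. Without the libraries rich in Myl7 they gave -1.66 for Chad and -0.456 for Comp in sedentary hearts, and -0.373 for Chad over both conditions.

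Leaving out 1 library gave ranges that crossed 0 for Sox9 (-0.255 to 0.304) and Cnmd (-0.799 to 0.072) in exercised against sedentary females. They also did for Comp (-0.343 to 0.313) and Chad (-0.48 to 0.341) in exercised against sedentary males, and for Comp (-0.113 to 0.905) and Hapln1 (-1.62 to 3.27) between the sexes in exercised hearts. In exercised hearts Cnmd ran from -2.81 to -1.94 and in sedentary hearts from -1.78 to -1.22, below 0 throughout.

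The number of genes that passed over the whole table was 1 by DESeq2 and 0 to 1 with a library left out for exercise in females, against 0 by edgeR, and 25 by DESeq2 for exercise in males. It was 10 by DESeq2 and 0 to 1 with a library left out for the difference. In exercised hearts 26 genes differed between the sexes, with 48 without a filter, 167 by DESeq2, 15 with only the groups compared and 17 to 55 with a library left out. In sedentary hearts 358 differed, with 98 under the atrial covariate, 108 under the red cell covariate, 14 without the libraries rich in Myl7, 876 by DESeq2 and 68 to 462 with a library left out. Over both conditions 818 differed, with 193, 306, 119 and 1370 in the same 4 fits and 421 to 837 with a library left out. Members at few counts, such as Hapln1 and Acan, limit what these data can show.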
